A study of Mus musculus with 9 samples.

Results

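The 104 genes described here encode the proteins of the mitochondrial ribosome, the factors that run translation on it, the machines that bring proteins into the organelle, and the matrix chaperones and proteases that fold or clear them. They were taken from the 12393 genes of an Affymetrix Mouse430A_2 array by symbol, as every gene named Mrpl, Mrps, Timm or Tomm followed by a digit, with Tufm, Tsfm, Mtif2, Mtif3, Gfm1, Gfm2, Hspd1, Hspe1, Hspa9, Lonp1 and Clpp. A probe set is a group of short probes for 1 transcript, 187 probe sets named 1 of these genes alone, and a gene took its brightest one. The rule matches 114 protein-coding genes of the RefSeq annotation, and Mrpl30, Mrpl53, Mrps10, Mrps27, Mtif3, Timm21, Tomm20l, Tomm5, Tomm6 and Tsfm had no probe set of their own. By role the measured genes comprised 47 of the large ribosomal subunit, 27 of the small subunit, 4 translation factors, 7 of the outer membrane translocase, 7 small Tim chaperones, 7 of the inner membrane translocases and 5 chaperones or proteases.

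The arrays held RNA of MLP29 cells, a line of mouse hepatic progenitors, from 3 experiments with 1 array per condition in each. After at least 16 h of starvation in 0.1% serum, cells received an antibody that blocks α5β1 integrin (clone BMB5, 10 µg/ml), received the growth factor HGF/SF1 (20 ng/ml), or were left untreated. The starvation was common to all 9 arrays. A control antibody was not analysed here, so an effect of blocking the integrin cannot be told apart from an effect of adding an antibody, and all results come from 1 cell line in bulk culture, in which less RNA per cell and fewer cells of a kind cannot be told apart.

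Mitochondria keep a small genome that encodes a few subunits of the respiratory chain and the RNAs of their own ribosome, while the proteins of that ribosome are encoded in the nucleus, made in the cytosol and imported. Proteins with a presequence cross the outer membrane through the TOM complex and the inner membrane through TIM23, pulled in by the Hsp70 of the matrix, whereas carrier proteins are escorted by the small Tim chaperones to TIM22. Liver cells are rich in mitochondria, and both machines are needed to build the respiratory chain.

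The deposited values are log2 signals, which allow comparison of a gene between arrays and not of one gene with another. All but 1 of the 104 genes lay above the median of the array's probe sets (6.02). The exception was Timm8a2, a small Tim gene that was dim on every array, between 2.93 and 3.19. Of 8 measured epithelial or progenitor markers, 5 lay above the median of all genes on average. The epithelial keratins Krt8, Krt18 and Krt19 among them lay far above the array median on every array. The markers Epcam, at an average of 4.34, Prom1 and Sox9 lay below the array median on average. Sox9 exceeded it in antibody cells of experiment 3, at 6.44. None of 8 hepatocyte, 7 leukocyte and 8 stromal or endothelial markers exceeded 5.35 on average, and no marker of the 4 lists was called between antibody and untreated cells. As a check of RNA integrity, control probe sets at both ends of the transcript were compared, and the log2 value at the 3' end minus that at the 5' end ranged over -0.318 to -0.0618 for Gapdh. For β-actin it was 0.228, 0.372 and 0.244 in antibody cells of experiments 1, 2 and 3, against 0.299, 0.748 and 0.610 in HGF/SF1 cells and 0.227, 0.873 and 0.197 in untreated cells. The conditions were thus close in experiment 1, while in experiment 2 the antibody array was below both others and in experiment 3 below the HGF/SF1 array alone.

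After the integrin blockade, 10 of the 104 genes were called lower and 2 higher than in untreated cells, and the calls that were lower included ribosomal proteins of both subunits and 2 translation factors. A call here is an unadjusted p under 0.05 in limma. The study names the same level for its arrays without saying whether it was adjusted. The lower calls made up 9.62% of the genes, beside 7.92% of all 12393 genes, and the higher calls 1.92%, beside 4.68%. None passed an adjusted p of 0.05, which 0.0403% of all genes did. Since nearly all of the 104 genes lay above the median level, the 6196 genes above it are a closer comparison, and of these 13.1% were called lower and 6.84% higher. The shares of the 104 genes were below both, and single calls are to be read with that in view. When the experiment was fitted as a replicate block, the calls were 13 lower (12.5%, beside 10.7% of all genes) and 7 higher (6.73%, beside 7.81%), none with an adjusted p under 0.05 (0.121% of all genes). Of the 6196 genes above the median level, 1071 were called lower and 725 higher with the block, and the shares of the 104 genes were again below both. The block added Mrpl20, Mrpl41, Mrps11 and Timm29 to the lower calls and took Mrps24 from them, and it added Hspa9, Lonp1, Mrpl39, Mrps9 and Tomm20 to the higher ones. With the arrays centred on their medians, 2 genes remained called lower, Mrps12 and Mrpl18, and 3 were called higher, Gfm2, Mrps5 and Hspa9.

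The genes as a whole sat slightly lower after the blockade. Their median log2 fold change was -0.11, against -0.0018 for all genes and -0.03 for the 6196 genes above the median level, and 68 of 104 (65.4%) were below 0, against 50.3% of all genes and 53.9% of those above the median level. With centred arrays the median was -0.05, against 0.05 for all genes. By role, the median was -0.11 for the large subunit, -0.14 for the small subunit, -0.22 for the small Tim chaperones, -0.10 for the 4 translation factors, 0.03 for the inner membrane translocases and 0.11 for the chaperones and proteases, and these signs were the same with centred or quantile-normalized arrays. The outer membrane genes had a median of -0.0096, which turned to 0.05 with centred arrays and 0.04 after quantile normalization.

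**Figure D1:**
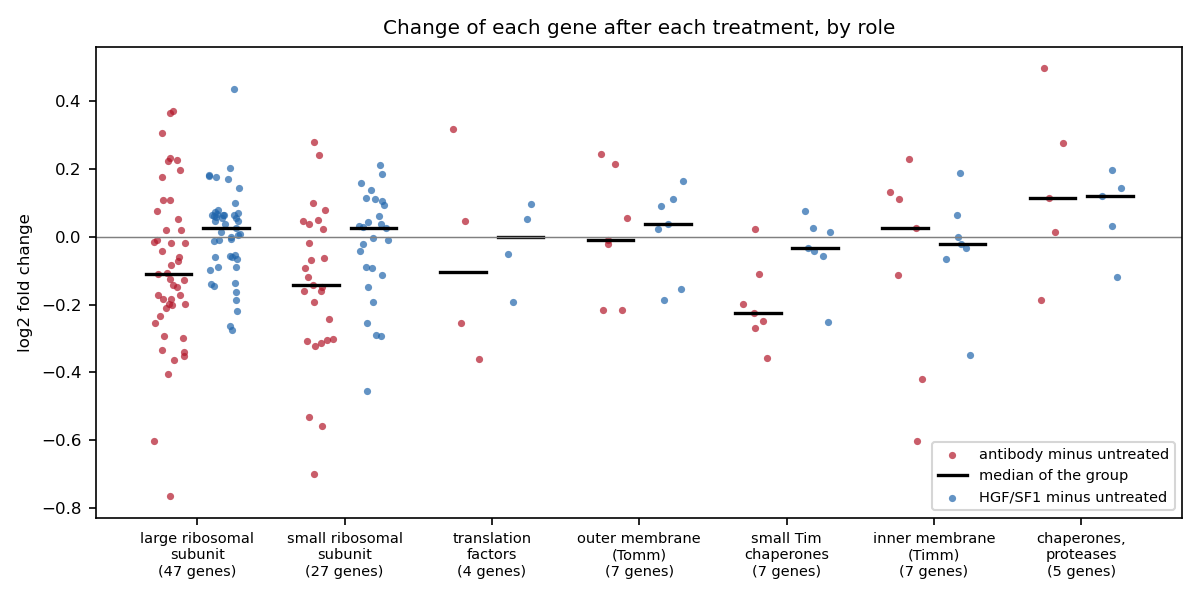
Log2 fold change of each of the 104 genes (y axis) against role (x axis), for antibody minus untreated cells (red, left in each pair) and HGF/SF1 minus untreated cells (blue, right), with a bar at the median of each group. Most ribosomal genes lie below 0 after the antibody, while the HGF/SF1 medians lie within 0.12 of 0 in every role.

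The 3 experiments did not move alike. In experiment 2 the median over the genes was -0.22 and 74.0% were below 0, against 52.7% of all genes. In experiment 3 the median was -0.08 with 58.7% below 0, against 46.0% of all genes. In experiment 1 it was 0.0055 with 49.0% below 0, against 48.2%. The genes above the median level also had lower medians in experiments 2 and 3, at -0.09 and -0.01. The β-actin ratio also differed most between antibody and untreated cells in experiment 2, and its part in these values was not tested. Lower values in 3 of 3 experiments were found for 34 genes (32.7%, against 18.9% of all genes) and higher values in 3 of 3 for 14 (13.5%, against 18.4%). The antibody array of experiment 1 stood apart, with a median 0.21 above the other antibody arrays over these genes, and without it 21 genes were called lower. Without all of experiment 1 the count was 16, without experiment 3 it was 4, and without experiment 2 it was 1, Mrps12. Of single arrays, leaving out antibody array 2 or 3 left 2 or 3 genes called lower, untreated array 1 or 2 left 2 or 1, and HGF/SF1 array 2, which enters through the shared spread, left 5. In 14 genes all antibody values lay below all untreated ones (13.5%, beside 8.8% of all genes), and in 5 all lay above (4.81%, beside 6.21%). The shares below 0 by experiment, alike in 3 of 3 experiments or without overlap were not computed for the genes above the median level.

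**Figure D2:**
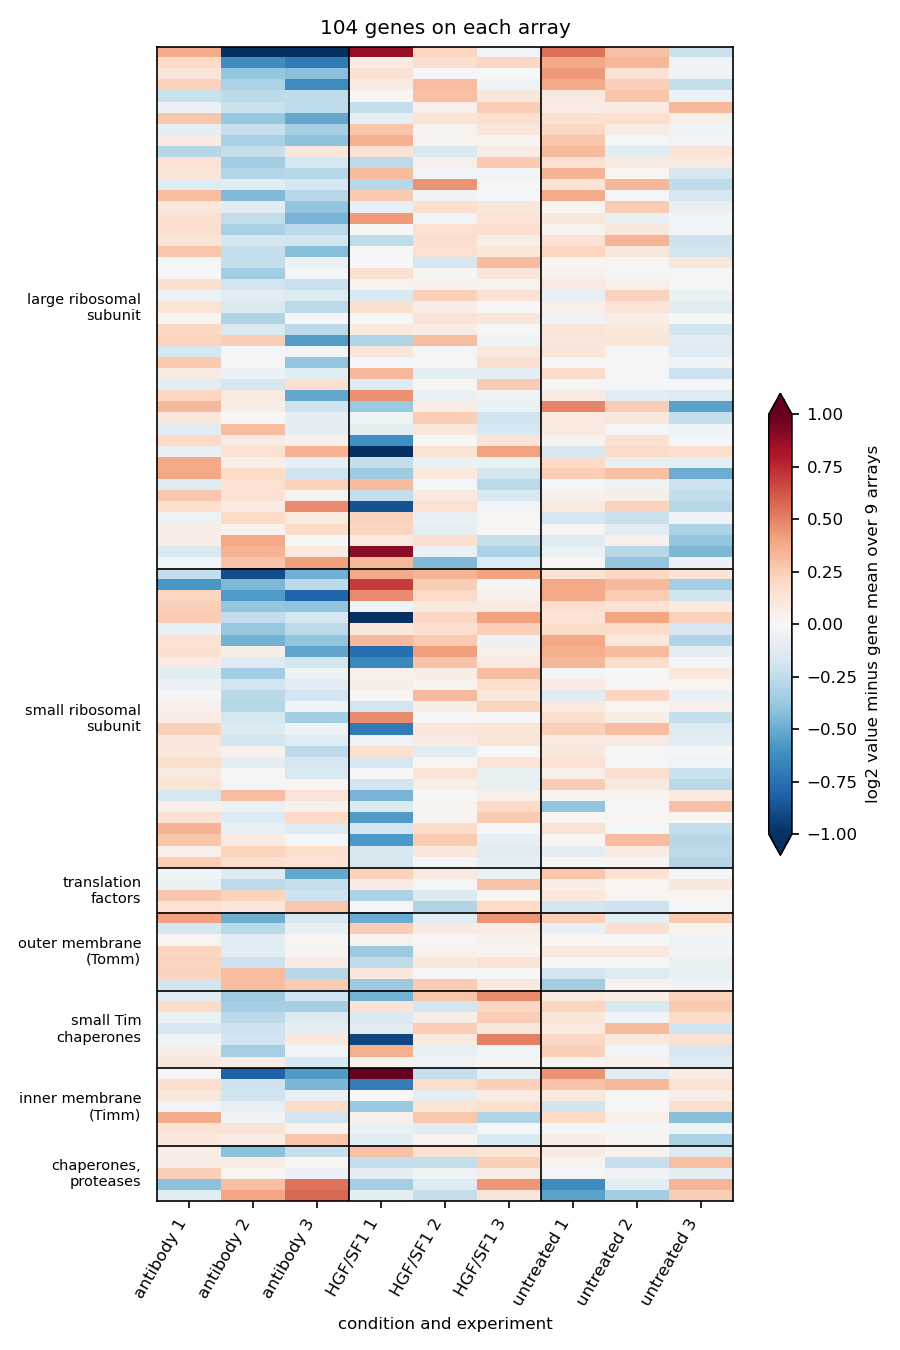
Each row is 1 of the 104 genes, sorted within its role by the change after the antibody, and each column 1 array, named by condition and experiment. Colour gives the log2 value minus the mean of the gene over the 9 arrays (red above, blue below, clipped at 1), and the blue field of lower ribosomal genes is in antibody arrays 2 and 3, not in antibody array 1.

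Mrps12 gave the clearest change of the set. It encodes the counterpart of bacterial S12, a protein at the decoding site of the small subunit, and lies on chromosome 7 (7:28739641-28741821 in GRCm38.p6). Its log2 value was 9.05, 8.41 and 8.82 in antibody cells of experiments 1, 2 and 3, against 9.68, 9.63 and 9.70 in HGF/SF1 cells and 9.44, 9.51 and 9.44 in untreated cells. All antibody values lay below all other arrays, while the HGF/SF1 values lay close together, as did the untreated ones. The log2 fold change between antibody and untreated cells was -0.70 (SE 0.15, adjusted p = 0.180), and it was -0.39, -1.09 and -0.62 within the experiments. Between antibody and HGF/SF1 cells it was -0.91 (SE 0.15, adjusted p = 0.110), and with the replicate block the adjusted p was 0.0491. In both comparisons the call held in each of 20 alternatives, with log2 fold changes between -0.86 and -0.50 against untreated cells and between -1.06 and -0.74 against HGF/SF1 cells.

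The gene starts back to back with Sars2, the seryl-tRNA synthetase of mitochondria, on the opposite strand, and 147 bases separate the starts, so that the promoter window holds both. Sars2 had log2 values of 6.30, 6.50 and 6.36 in antibody cells and 6.04, 6.28 and 6.45 in untreated cells, and its log2 fold change was 0.13 (SE 0.14), which was not called. RefSeq gives the window as follows (GRCm38.p6, chr7:28741772-28742071, minus strand), from 250 bases before the start to 50 after it. Capitals mark the letters AAGATGGC read on the other strand, the core that the factor YY1 is known to bind, which begin at position -199 and so lie beyond the Sars2 start.
Mrps12: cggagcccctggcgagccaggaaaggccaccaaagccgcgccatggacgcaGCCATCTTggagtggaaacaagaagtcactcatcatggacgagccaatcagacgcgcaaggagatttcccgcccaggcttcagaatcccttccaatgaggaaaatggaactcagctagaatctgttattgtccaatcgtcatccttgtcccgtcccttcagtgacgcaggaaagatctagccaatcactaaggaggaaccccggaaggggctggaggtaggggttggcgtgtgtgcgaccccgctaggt
The same letters, again on the other strand, occur at position -30 of Mrpl36 (chr13:73330759-73331058, plus strand), a gene of the large subunit that was called lower in both antibody comparisons.
Mrpl36: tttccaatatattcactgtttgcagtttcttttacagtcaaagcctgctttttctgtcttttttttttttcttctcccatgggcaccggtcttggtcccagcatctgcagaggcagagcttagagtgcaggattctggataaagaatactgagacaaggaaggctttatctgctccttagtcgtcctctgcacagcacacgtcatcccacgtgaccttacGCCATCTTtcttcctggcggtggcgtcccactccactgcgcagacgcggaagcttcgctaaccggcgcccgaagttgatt
They also occur at position -107 of Mrps11 (chr7:78782881-78783180, plus strand), which starts 42 bases from Mrpl46 on the opposite strand. The windows of this pair overlap, but the letters lie outside that of Mrpl46, in which none of the motifs searched was found.
Mrps11: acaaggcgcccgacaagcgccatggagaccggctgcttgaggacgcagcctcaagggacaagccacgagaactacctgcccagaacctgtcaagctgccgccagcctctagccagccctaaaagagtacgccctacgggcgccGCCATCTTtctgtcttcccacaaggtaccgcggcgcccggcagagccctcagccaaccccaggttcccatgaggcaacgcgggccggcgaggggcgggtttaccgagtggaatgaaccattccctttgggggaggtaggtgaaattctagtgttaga

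Among the other genes of the small subunit, 2 more were called lower and 1 higher. Mrps6, the counterpart of bacterial S6, read 10.19, 10.32 and 10.51 in antibody cells, against 11.47, 11.01 and 10.75 in HGF/SF1 cells and 11.15, 11.10 and 10.43 in untreated cells. The antibody values lay below all HGF/SF1 values but overlapped with the untreated array of experiment 3, so that the within-experiment differences from untreated cells were -0.96, -0.78 and 0.07. The log2 fold change was -0.56 (SE 0.24, adjusted p = 0.412).

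Mrps24, a small subunit protein, read 10.02, 9.71 and 9.83 in antibody cells, against 10.20, 10.26 and 10.33 in HGF/SF1 cells and 10.27, 10.28 and 9.92 in untreated cells. The lowest untreated array, again that of experiment 3, lay within the antibody range. Its log2 fold change was -0.31 (SE 0.13, adjusted p = 0.410), and the call was lost with the replicate block. Mrps5, the counterpart of bacterial S5, went the other way. It read 7.76, 7.69 and 7.66 in antibody cells, against 7.34, 7.50 and 7.41 in HGF/SF1 cells and 7.52, 7.53 and 7.22 in untreated cells, with every antibody array above the 6 others. The log2 fold change from untreated cells was 0.28 (SE 0.11, adjusted p = 0.378), and both probe sets of the gene had higher means.

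Mrps11, the counterpart of bacterial S11, read 8.62, 7.84 and 7.61 in antibody cells, against 8.88, 8.60 and 8.45 in HGF/SF1 cells and 8.78, 8.66 and 8.21 in untreated cells. The antibody array of experiment 1 lay among the controls and the other antibody arrays lay below all of them. The log2 fold change was -0.53 (SE 0.27, adjusted p = 0.507), which was called only with the replicate block, and the dimmer of its probe sets, near the array's floor, had a difference of 0.37. Mrps14, the counterpart of bacterial S14, and Mrps18b had log2 fold changes of -0.16 and -0.19. They were not called against untreated cells, though for both genes the antibody and untreated values did not overlap. The other 20 small subunit genes had log2 fold changes between -0.32 and 0.24. Names and place do not always match, since the proteins of Mrps18a and Mrps30 sit in the large subunit of the mammalian ribosome. These genes had log2 fold changes of -0.15 and 0.05. The protein of Mrps36, at -0.14, is now placed in the 2-oxoglutarate dehydrogenase complex and not in the ribosome.

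In the large subunit 5 of 47 genes were called lower and none higher. Mrpl36, the counterpart of the small bacterial protein L36, read 7.48, 7.44 and 7.45 in antibody cells, against 7.73, 8.0 and 7.82 in HGF/SF1 cells and 7.80, 7.99 and 7.64 in untreated cells. The antibody values were the lowest on the 9 arrays and nearly equal to each other (mean 7.46 ± 0.02, SD, n = 3). The log2 fold change was -0.35 (SE 0.12, adjusted p = 0.296), with -0.32, -0.54 and -0.19 within the experiments.

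Mrpl46, a protein with no bacterial counterpart, read 9.19, 9.06 and 8.96 in antibody cells, against 9.57, 9.32 and 9.41 in HGF/SF1 cells and 9.50, 9.37 and 9.25 in untreated cells. The antibody values lay below all others, and the difference from untreated cells was almost the same in each experiment, at -0.30, -0.30 and -0.29. The log2 fold change was -0.30 (SE 0.11, adjusted p = 0.357). Mrpl10, a protein at the base of the ribosomal stalk, read 8.06, 7.90 and 7.86 in antibody cells, against 7.88, 8.17 and 8.36 in HGF/SF1 cells and 8.19, 8.20 and 8.45 in untreated cells. It lay below every untreated array but overlapped with the HGF/SF1 array of experiment 1, and its log2 fold change was -0.34 (SE 0.14, adjusted p = 0.401).

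Mrpl18, a protein of the central protuberance, read 9.24, 8.42 and 8.34 in antibody cells, against 9.12, 9.22 and 9.25 in HGF/SF1 cells and 9.42, 9.38 and 9.0 in untreated cells. The antibody array of experiment 1 fell within the range of the untreated ones, and the other antibody arrays lay well below every other array. The fit gave a log2 change of -0.60 (SE 0.23, adjusted p = 0.367). Mrpl49, which has no bacterial counterpart, read 8.68, 8.17 and 8.14 in antibody cells, against 8.70, 8.53 and 8.55 in HGF/SF1 cells and 8.99, 8.70 and 8.51 in untreated cells. Here too the antibody array of experiment 1 overlapped with the untreated ones, and the log2 fold change was -0.40 (SE 0.18, adjusted p = 0.422), with -0.71 for its second probe set.

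The largest difference in the subunit was that of Mrpl41, a protein with no bacterial counterpart, and it was not called. It read 9.30, 7.91 and 7.89 in antibody cells, against 9.79, 9.14 and 8.89 in HGF/SF1 cells and 9.48, 9.22 and 8.70 in untreated cells. The spread between experiments was large in each condition, with the array of experiment 1 highest throughout. The fitted log2 change was -0.76 (SE 0.41, adjusted p = 0.537), and the gene was called lower with the replicate block (adjusted p = 0.118). Its 3 probe sets all had lower means, the dimmest of them near the array's floor. Of the 47 genes, 33 had fold changes below 0, and the highest were those of Mrpl45, Mrpl1 and Mrpl39, at 0.37, 0.36 and 0.31, none of them called. The probe sets of Mrpl1 disagreed. A dimmer one, at log2 values between 5.28 and 6.19, had a difference of -0.65 (SE 0.13). Another, near the array's floor, had 0.18. The 20 large subunit genes without a bacterial counterpart had a median of -0.14, and the 27 with one had -0.08. Among the genes named Mrps the order was the other way, with -0.02 over the 11 genes without a counterpart and -0.22 over the 16 with one. These groups follow the gene names, so the 11 include Mrps30 and Mrps36, and the 16 include Mrps18a, Mrps18b and Mrps18c, which share a number.

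**Figure D3:**
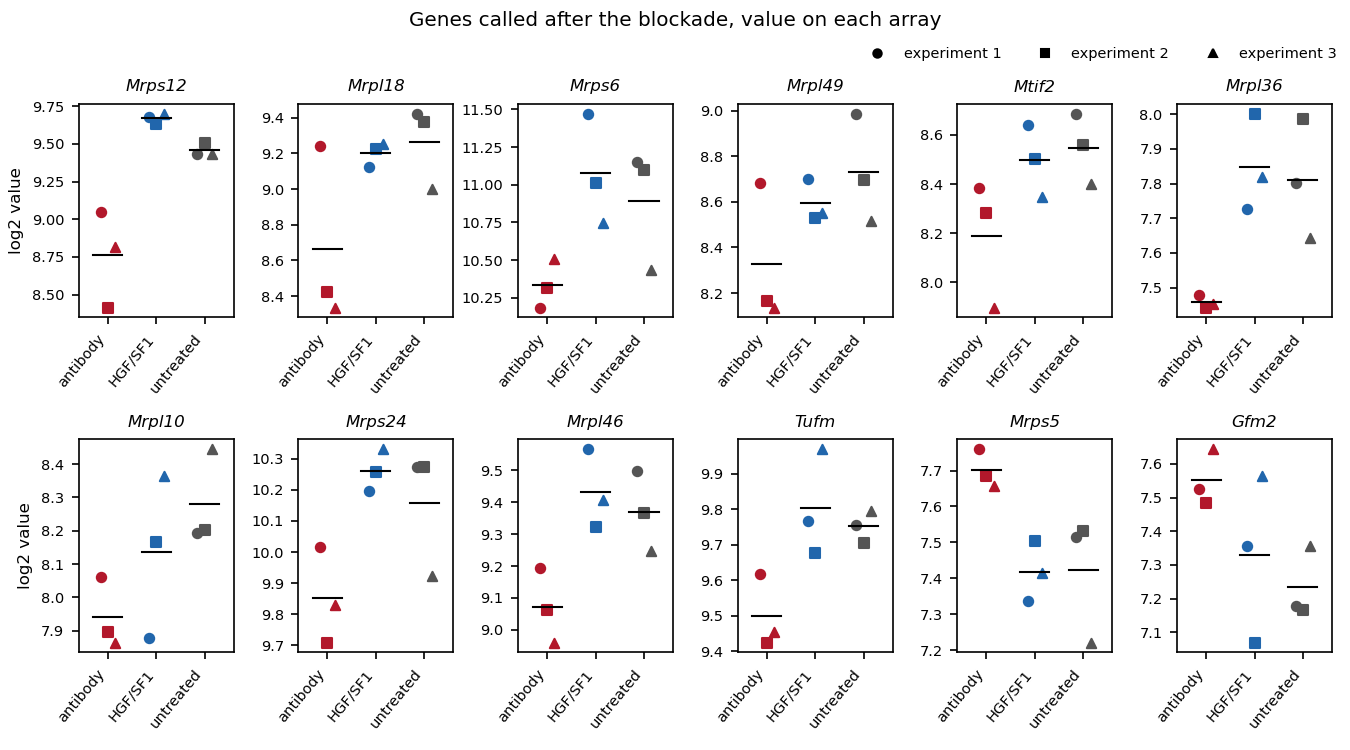
Log2 value on each array (y axis, a scale of its own per panel) for the 12 genes called between antibody and untreated cells, by condition (x axis: antibody, HGF/SF1, untreated), with a marker shape for each experiment and a bar for the mean. In Mrps12, Mrpl36, Mrpl46 and Tufm every antibody value lies below the 6 other arrays, while in Mrpl18, Mrpl49, Mrps24 and Mrps6 the antibody and untreated values overlap.

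Of the 4 translation factors, 2 were called lower and 1 higher. Tufm encodes the elongation factor that brings aminoacyl-tRNA to the ribosome. It read 9.62, 9.42 and 9.45 in antibody cells, against 9.77, 9.68 and 9.97 in HGF/SF1 cells and 9.76, 9.71 and 9.80 in untreated cells, with all antibody values below all others. On the log2 scale the difference was -0.25 (SE 0.11, adjusted p = 0.408). All 3 probe sets had lower means, but the dimmer ones lay near the array's floor. Its promoter window (chr7:126487105-126487404, plus strand) holds the letters CCGGAAGT, the core known to be bound by ETS factors such as GABP, which are in capitals and begin at position -2.
Tufm: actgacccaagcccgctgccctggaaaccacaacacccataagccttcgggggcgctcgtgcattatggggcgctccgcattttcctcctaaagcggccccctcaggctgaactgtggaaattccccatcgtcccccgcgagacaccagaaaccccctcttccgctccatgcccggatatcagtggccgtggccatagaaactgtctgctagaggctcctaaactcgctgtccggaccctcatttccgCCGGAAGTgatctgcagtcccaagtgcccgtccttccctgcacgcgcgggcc

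Mtif2 encodes the initiation factor that places the first tRNA. It read 8.38, 8.28 and 7.90 in antibody cells, against 8.64, 8.50 and 8.35 in HGF/SF1 cells and 8.69, 8.56 and 8.40 in untreated cells. The antibody array lay lowest within each experiment and all 3 lay below the untreated arrays, with a log2 change of -0.36 (SE 0.15, adjusted p = 0.402). Gfm2, which encodes the elongation factor G that acts in ribosome recycling, was called higher. It read 7.53, 7.48 and 7.64 in antibody cells, against 7.36, 7.07 and 7.56 in HGF/SF1 cells and 7.18, 7.17 and 7.36 in untreated cells, so that antibody and untreated values did not overlap. Its log2 fold change was 0.32 (SE 0.14, adjusted p = 0.416), and a second, dim probe set had a difference of -0.05. Gfm1, which encodes the elongation factor G of translocation, had a log2 change of 0.05 (SE 0.15), while its second probe set, at log2 values between 4.20 and 5.20, had one of -0.69.

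No gene of the import machinery was called between antibody and untreated cells. In the outer membrane, the log2 fold changes ran between -0.22, for the pore gene Tomm40 and for Tomm34, a cytosolic co-chaperone of import, and 0.24 for the presequence receptor Tomm20. Tomm34 read 7.92, 7.84 and 8.02 in antibody cells, against 8.35, 8.18 and 8.17 in HGF/SF1 cells and 8.03, 8.27 and 8.13 in untreated cells. Its antibody values lay below all others, with a log2 fold change from untreated cells of -0.22 (SE 0.11, adjusted p = 0.489). Tomm20 read 12.17, 12.66 and 12.61 in antibody cells and 12.01, 12.39 and 12.31 in untreated cells, higher in each experiment, and was called higher only with the replicate block. The receptor genes Tomm22 and Tomm70a had -0.02 (SE 0.08) and 0.21.

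The small Tim chaperones bind hydrophobic proteins in the space between the membranes, and 6 of the 7 genes had lower means after the blockade, none of them called. Timm10, which pairs with Timm9, read 9.21, 8.95 and 9.11 in antibody cells, against 8.84, 9.59 and 9.78 in HGF/SF1 cells and 9.41, 9.39 and 9.55 in untreated cells. The antibody values lay below the untreated ones, while the HGF/SF1 arrays spread over both sides. The fit gave a log2 change of -0.36 (SE 0.22, adjusted p = 0.609). Timm13, the partner of the Timm8 proteins, read 10.94, 10.74 and 10.86 in antibody cells, against 10.86, 11.08 and 11.25 in HGF/SF1 cells and 11.12, 10.97 and 11.18 in untreated cells, again without overlap between antibody and untreated cells. Its log2 fold change was -0.25 (SE 0.12, adjusted p = 0.496).

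In the inner membrane most genes of the presequence translocase lay above 0 and the genes of the carrier translocase below it, none of them called. Timm17a, Timm17b, Timm44 and Timm50, all of TIM23, had log2 fold changes of 0.13, 0.11, 0.23 and 0.03, and the channel gene Timm23 had -0.11. Timm22 and Timm29, the channel of the carrier translocase and a subunit of it known from human cells, had -0.42 (SE 0.26) and -0.60 (SE 0.40). Timm29 read 8.72, 7.93 and 8.16 in antibody cells, against 10.05, 8.50 and 8.63 in HGF/SF1 cells and 9.18, 8.63 and 8.81 in untreated cells. It was lower in the antibody array of each experiment (-0.46, -0.70 and -0.64) and was called with the replicate block only (adjusted p = 0.200), and the HGF/SF1 array of experiment 1 stood far above the other arrays. Timm44, which tethers the matrix Hsp70 to the channel, read 9.83, 9.79 and 10.00 in antibody cells and 9.79, 9.75 and 9.40 in untreated cells. The antibody values all lay above the untreated ones, the lowest of them barely, and the log2 fold change was 0.23 (SE 0.13, adjusted p = 0.561).

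None of the 5 chaperone and protease genes was called against untreated cells. Hspa9, the Hsp70 of the matrix, read 11.36, 11.88 and 12.06 in antibody cells, against 11.39, 11.24 and 11.60 in HGF/SF1 cells and 10.95, 11.13 and 11.73 in untreated cells. The antibody array was above the untreated array of its own experiment in all 3, by 0.41, 0.75 and 0.33, and the groups overlapped through the untreated array of experiment 3. The fitted log2 change was 0.50 (SE 0.24, adjusted p = 0.487), called with the replicate block (adjusted p = 0.159). All 4 probe sets had higher means, the dimmest by only 0.05. Lonp1, a protease that degrades damaged matrix proteins, had a log2 change of 0.27 (SE 0.33), with 0.21, 0.41 and 0.20 within the experiments, and was called only with the replicate block. Hspd1 and Hspe1, the Hsp60 and Hsp10 that form the folding chamber, share a promoter region, with 216 bases between their starts. They had log2 fold changes of 0.01 (SE 0.17) and 0.11 (SE 0.10). Clpp, the proteolytic subunit of the ClpXP protease, had -0.19 (SE 0.14).

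HGF/SF1, a growth factor also known as scatter factor, was the second stimulus, and none of the 104 genes was called between HGF/SF1 and untreated cells in either direction in limma, nor with the replicate block. Of all genes, 0.533% were called higher and 0.307% lower, and 0% had an adjusted p under 0.05. The median over the genes was 0.02, against 0.008 for all genes. In 3 genes all HGF/SF1 values lay above all untreated ones (2.88%, beside 2.41% of all genes), namely Clpp, Mrps12 and Tomm70a, and in 1 gene, Mrps7, all lay below (0.962%, beside 1.53%). These 4 had log2 fold changes of 0.20, 0.21, 0.17 and -0.09. Mrps12 was thus on opposite sides of untreated cells after the treatments, and its difference between HGF/SF1 and untreated cells was called only when the antibody arrays were left out of the fit. The HGF/SF1 array of experiment 1 was more than 1 log2 unit from the mean of the other HGF/SF1 arrays in 5 genes, Mrps2, Timm29, Mrpl24, Timm9 and Mrpl1, and the medians by experiment were -0.08, -0.0096 and 0.16.

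Set directly against HGF/SF1 cells, antibody cells had 11 of the 104 genes called lower (10.6%, beside 8.96% of all genes) and 1 called higher, Mrps5 (0.962%, beside 5.19%). Of the genes above the median level, 14.6% were called lower and 8.26% higher. None had an adjusted p under 0.05 (0.0242% of all genes). With the replicate block, 20 of the 104 genes were called lower (19.2%, beside 11.6% of all genes) and 1 higher (0.962%, beside 8.73%). Of the 6196 genes above the median level, 1154 were called lower and 848 higher with the block. The share of the 104 genes called lower was thus close to that of these brighter genes, and the share called higher was below it. Mrps12 alone of the 104 genes had an adjusted p under 0.05 with the block, as did 1.13% of all genes. Among the 104 genes, values did not overlap for 12 that were lower (11.5%, beside 8.74% of all genes) and 3 that were higher (2.88%, beside 5.72%). Their median was -0.08, against -0.01 for all genes and -0.03 for those above the median level. By experiment it was 0.12, -0.22 and -0.24 in experiments 1, 2 and 3. The count of genes called lower was 27 without antibody array 1 and 28 without experiment 1, against 5 and 7 without antibody arrays 2 and 3, 1 without experiment 2 and 4 without experiment 3. This comparison shares its antibody arrays with the one against untreated cells, so the values of both are given side by side and not counted as separate evidence.

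The 11 genes were Mrps12, Mrps6, Mrps11, Mrps24, Mrps18b, Mrps14, Mrpl36, Mrpl46, Tufm, Tomm34 and Clpp. Mrps6 differed by a log2 change of -0.74 (SE 0.24, adjusted p = 0.247) against HGF/SF1 cells, beside -0.56 against untreated cells. Mrps11 had -0.62 (SE 0.27, adjusted p = 0.374), beside -0.53. Mrps24 had -0.41 (SE 0.13, adjusted p = 0.244), beside -0.31, and all its antibody values lay below all HGF/SF1 values. Clpp read 9.72, 9.25 and 9.42 in antibody cells, against 9.95, 9.80 and 9.79 in HGF/SF1 cells, with no overlap and a log2 change of -0.38 (SE 0.14, adjusted p = 0.281), beside -0.19 against untreated cells. The remaining 6 had log2 fold changes between -0.39 and -0.20. By role, 6 of the 27 small subunit genes were called lower, against 2 of the 47 large subunit genes, and the difference between the subunits was not tested.

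Of the 92 genes with a start that could be matched, 24 begin within 1000 bases of a measured gene on the opposite strand, in 22 pairs. The share of such starts among all array genes was not computed. Of 20 neighbours outside the set, 1 was called after the blockade, Pqbp1, while of all genes 7.92% were called lower and 4.68% higher. Some neighbours, such as Cyb5rl, Zfp189 and Helq, were dim on every array. Pqbp1, a splicing-linked gene that starts 67 bases from Timm17b, had a log2 change of -0.25 (SE 0.10), beside 0.11 (SE 0.22) for Timm17b. Against untreated cells, without the replicate block, both genes of a pair were called lower in no case. Mrpl18 (-0.60, SE 0.23) starts 238 bases from Tcp1, a subunit of the cytosolic chaperonin, which had -0.08 (SE 0.13). Mrpl49 (-0.40, SE 0.18) starts 192 bases from Fau, a gene of the cytosolic ribosome, which had -0.03 (SE 0.09). Gfm2 (0.32, SE 0.14) starts 11 bases from Nsa2, a ribosome assembly gene, which had 0.15 (SE 0.20). Mrpl46 and Mrps11, a pair within the set, both lay below 0 against untreated cells (-0.30 and -0.53), and both were called lower with the replicate block and against HGF/SF1 cells. Differences within pairs were not tested.

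**Figure D4:**
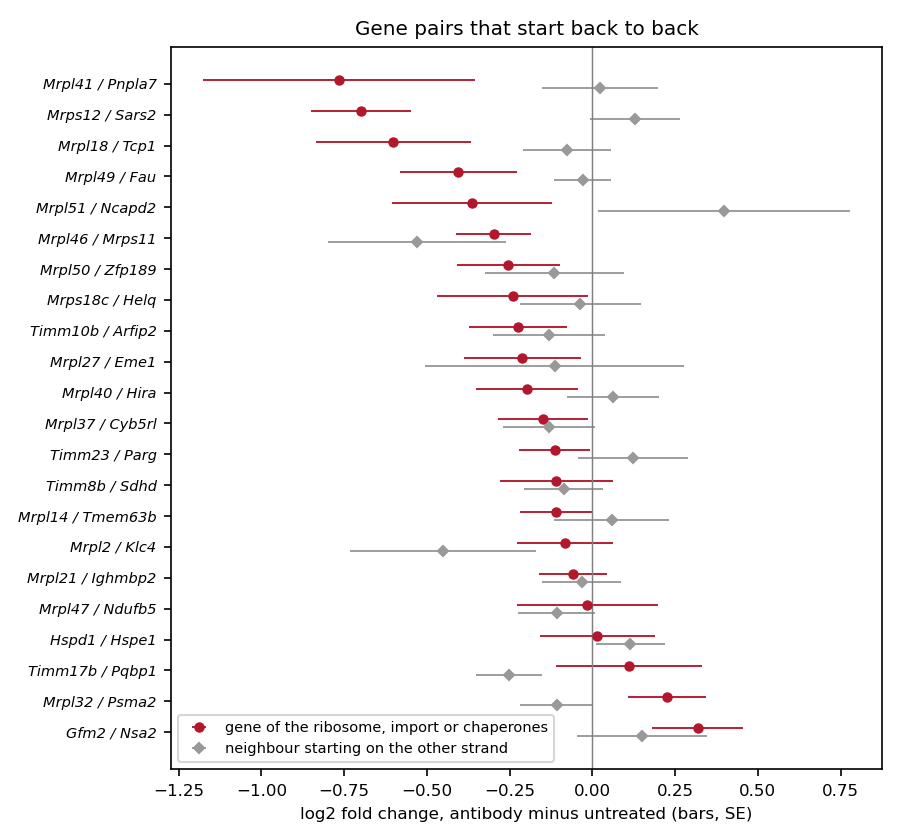
Log2 fold change between antibody and untreated cells (x axis, bars SE of the limma fit) for the 22 pairs of genes that start within 1000 bases of each other on opposite strands (y axis), with the gene of the set as a red circle and its neighbour as a grey diamond (for Hspd1/Hspe1 and Mrpl46/Mrps11 both belong to the set). Mrps12, Mrpl18 and Mrpl49 lie well below neighbours that stay within 0.13 of 0.

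Promoter windows of 300 bases could be matched for 92 of the 104 genes, 6 of them with several starts. In them, searched on both strands, the YY1 core AAGATGGC was found in 12 genes (13%, beside 4.4% of 9882 array genes with a window and 3.2% of all 27025 genes), the ETS core CCGGAAGT in 19 (20.7%, beside 7.2% and 4.3%) and the core GCATGCGC of NRF1, a regulator of nuclear genes for mitochondria, in 9 (9.8%, beside 5.0% and 3.0%). At least 1 of these was in 38 genes (41.3%, beside 15.5% and 9.9%). Of the 12 genes with the YY1 core, 4 were called lower after the blockade (Mrpl36, Mrpl49, Mrps12 and Mrps24), and of the 80 without it 6 were. The others with the core, none called, were Mrpl32 (0.23), Timm50 (0.03), Mrpl42 (-0.01), Mrpl35 (-0.02), Mrpl37 (-0.15), Mrps18a (-0.15), Mrps7 (-0.32) and Mrps11 (-0.53). The medians with and without the YY1 core were -0.23 and -0.12. Calls among all array genes with a given core were not counted, so these counts have no matched background. With the ETS core 2 of 19 genes were called lower, and without it 8 of 73, with medians of -0.12 and -0.13. With the NRF1 core 1 of 9 was called lower, and without it 9 of 83, with medians of -0.18 and -0.13. These splits were not tested. A match is a description of these letters in the window.

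The genes were then set beside other nuclear genes for mitochondria, from lists made by function with earlier results of these data known. The genes that keep, copy and read mitochondrial DNA and process its RNA had 8 of 24 called lower (33.3%, beside 7.92% of all genes and 13.1% of those above the median level) and none higher after the blockade, the same 8 lower against HGF/SF1 cells, and none called between HGF/SF1 and untreated cells. Polg, the catalytic subunit of the mitochondrial DNA polymerase, read 7.58, 7.48 and 7.46 in antibody cells, against 7.81, 8.08 and 7.88 in HGF/SF1 cells and 8.32, 8.27 and 7.98 in untreated cells. The antibody values were the lowest on the 9 arrays, and the log2 fold change from untreated cells was -0.68 (SE 0.12, adjusted p = 0.157). Mrm2, which methylates the RNA of the large mitochondrial subunit, was dim and had the largest change, with 5.42, 4.95 and 4.34 in antibody cells, against 5.90, 6.36 and 6.55 in HGF/SF1 cells and 5.86, 6.28 and 6.69 in untreated cells. Again no antibody array reached the lowest of the others, and the log2 fold change was -1.37 (SE 0.31, adjusted p = 0.195). Tfb2m, a factor that starts mitochondrial transcription, had -0.53 (SE 0.14, adjusted p = 0.212), and Lrpprc, which stabilizes mitochondrial mRNAs, had -0.63 (SE 0.20, adjusted p = 0.275). The median of the list was -0.07, against -0.0018 for all genes. The count of 8 was 2 without experiment 3 and 4 without experiment 2, 4 without antibody array 3 and 5 without antibody array 2, and between 6 and 10 in the other alternatives, and against HGF/SF1 cells it was 4 without experiment 2 or 3.

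**Figure D5:**
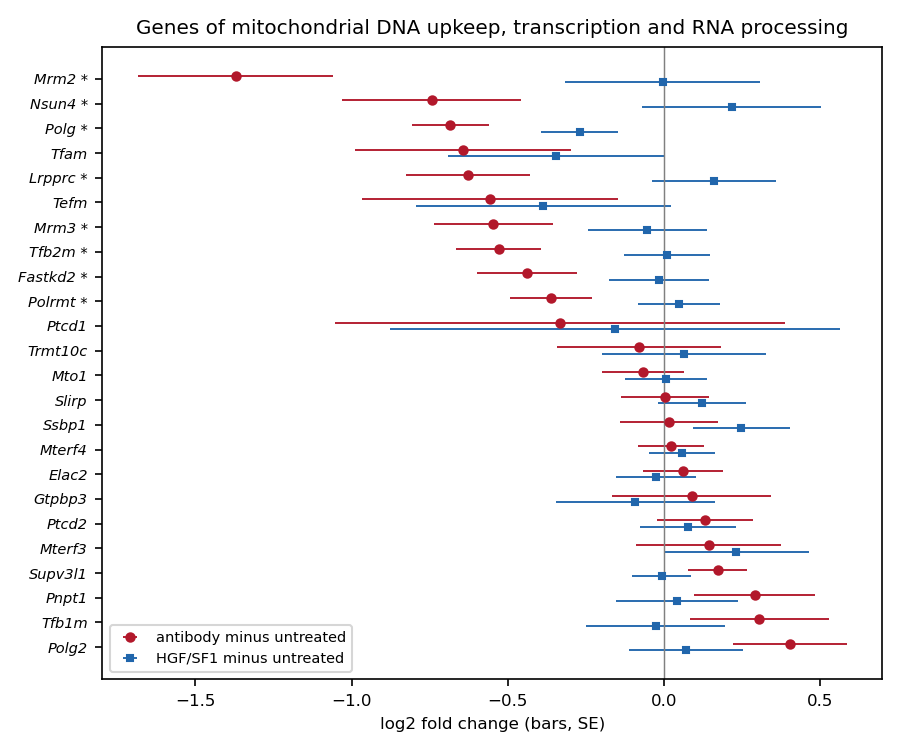
Log2 fold change (x axis, bars SE) of the 24 measured genes of mitochondrial DNA upkeep, transcription and RNA processing (y axis), for antibody minus untreated cells (red circles) and HGF/SF1 minus untreated cells (blue squares). Asterisks mark the 8 genes called lower after the antibody, between -0.36 and -1.37, while none was called after HGF/SF1.

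Of 13 further genes of ribosome assembly and protein maturation in mitochondria, 4 were called lower and 1 higher (30.8% and 7.69%). Of all genes, 7.92% were called lower and 4.68% higher, and of those above the median level 13.1% and 6.84%. The same shares are the background of the other lists named here, each of which holds few genes. Dap3, a small subunit protein not named by the Mrps rule, was lower by a log2 change of -0.38 (SE 0.11, adjusted p = 0.262), with 9.81, 9.73 and 9.64 in antibody cells below 10.19, 10.18 and 9.96 in untreated cells. Mtfmt and Pdf, which add and remove the formyl group of the first methionine, had -0.93 (SE 0.40) and -0.59 (SE 0.24). Noa1, a GTPase of ribosome assembly, had -0.29 (SE 0.12), and Chchd1, the higher one, chosen for mention after its value was seen, had 0.25 (SE 0.11). The 16 other genes of import had no call and a median of 0.04. Of 12 other chaperones and proteases, 1 was called, the protease gene Htra2, at 0.61 (SE 0.21) and higher. Of 8 mitochondrial tRNA synthetases, Fars2 was called higher (0.34, SE 0.14) and Pars2 lower (-0.98, SE 0.37).

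Among 12 regulators of these genes, 2 were called higher (16.7%, beside 4.68% of all genes) and 1 lower (8.33%, beside 7.92%). Nrf1 read 6.53, 7.21 and 7.55 in antibody cells, against 6.17, 6.07 and 6.34 in HGF/SF1 cells and 6.57, 6.41 and 6.65 in untreated cells. The antibody array of experiment 1 lay among the untreated ones, and the log2 fold change was 0.55 (SE 0.23, adjusted p = 0.400). Its other probe sets, at averages of 6.11 and 6.00, had differences of -0.03 and 0.90. Gabpb1, a subunit of GABP, had 1.42 (SE 0.58, adjusted p = 0.383), with 6.19, 8.03 and 8.68 in antibody cells, against 6.29, 5.88 and 6.47 in untreated cells. Only the antibody arrays of experiments 2 and 3 stood apart, as they did in Mrpl18 and Mrpl49, and the second, dimmer probe set of Gabpb1 had a difference of 0.02. Atf5, a factor of the mitochondrial stress response, had -0.95 (SE 0.36, adjusted p = 0.347). Yy1 and Gabpa, with log2 fold changes of 0.36 (SE 0.22) and 0.06 (SE 0.14), were not called. ND5, encoded by mitochondrial DNA itself and the only such gene with a value here, read 11.87, 11.49 and 11.45 in antibody cells, against 10.97, 11.31 and 11.42 in HGF/SF1 cells and 11.55, 11.85 and 11.55 in untreated cells. It was called lower between HGF/SF1 and untreated cells (-0.41, SE 0.17, adjusted p = 1), but not with the replicate block. The differences within the experiments were -0.57, -0.54 and -0.13. Between antibody and untreated cells ND5 had a log2 change of -0.04.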

How the data were processed

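The authors hybridised RNA of the 9 samples to Affymetrix Mouse430A_2 arrays, corrected the background by rma in affylmGUI and deposited 1 log2 value per probe set and array. The normalization between arrays is not given in the sources used here, and the array medians lay between 5.91 and 6.08. Of 22690 probe sets, 64 controls were left out and 22626 were analysed, of which 20380 named 1 gene in the platform annotation, 691 named several and 1555 none. Probe sets that name several genes were not used, and a gene took its brightest probe set.

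All 22626 probe sets entered 1 limma fit (version 3.58.1, R 4.3.3), with a mean per condition over all 9 arrays (6 residual degrees of freedom, 2.39 prior), two-sided, with Benjamini-Hochberg adjustment over all of them. Calls were made at an unadjusted p under 0.05, since the study names p under 0.05 for its arrays, not saying whether adjusted. The sample titles of 1 experiment end in the same number, and the labels do not say what it stands for. Deviations from the condition means correlated between 0.0958 and 0.591 for arrays sharing that number. For arrays of different experiments they correlated between -0.484 and 0.0308, so the numbers in the titles pair the samples. The study calls the 3 experiments independent, with 1 array per condition in each. Each result was recomputed with 20 alternatives, namely the experiment as a fixed or random replicate block, arrays centred on medians or quantile normalized, the mean of a gene's probe sets, a variance trend, brighter probe sets only, only the 2 conditions compared, and without each array or experiment. The number of arrays limits the precision.

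The genes named in the text are all with an unadjusted p under 0.05 in any comparison (at most 15 per direction), per role those with the smallest p and the largest change, each gene listed by name in the rule, and at most 4 called genes of each other list. Further genes are named as examples. The members and lists were chosen with earlier results of these data known. Promoter windows, coordinates and starts are those of RefSeq (GRCm38.p6), to which 20351 probe sets were matched.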

Additional observations from a re-analysis of the deposited data

How the results depend on the processing

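No log2 fold change of a called gene changed sign under the 20 alternatives, while counts of calls moved. For antibody against untreated cells, the 2 genes called higher became 7 with the replicate block, 5 with a random replicate block, 1 with the mean of a gene's probe sets or with 2 conditions only, and 0 with a variance trend or with probe sets above the median level. The 10 called lower became 2 with arrays centred on their medians and 3 with the variance trend or with probe sets above the median level. For HGF/SF1 against untreated cells, 1 gene was called higher with 2 conditions only. For antibody against HGF/SF1 cells, the 11 called lower became 20 with the replicate block, 19 with the random block and 7 with probe sets above the median level, and the 1 called higher became 0 with the variance trend or with probe sets above the median level. Leaving out 1 array or experiment gave 0 to 2 higher, 1 to 21 lower and a median of -0.19 to -0.06 for antibody against untreated cells. It gave 0 to 1 higher, 0 to 1 lower and -0.05 to 0.08 for HGF/SF1 against untreated cells, and 0 to 3 higher, 1 to 28 lower and -0.24 to -0.04 for antibody against HGF/SF1 cells. Of the 24 calls of single genes in the antibody comparisons, 22 held with the replicate block, 14 with centred arrays and 2 without experiment 2, both of Mrps12. The causes of these shifts were not tested. With 3 arrays per condition and calls near the share of the whole array, most single genes cannot be set apart from the background of calls.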
